A study of Homo sapiens with 16 samples.

Results

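The genes described here are 9 core components of the microRNA pathway: the Argonautes AGO1, AGO2 and AGO3, the GW182 proteins TNRC6A and TNRC6B, the nucleases DICER1 and DROSHA, the DROSHA partner DGCR8, and the exporter XPO5. They were chosen as named components of the pathway, with earlier results of these data known, and all 9 were listed in both deposited tables, among 10799 transcripts in the first table (MDA-LM2 and parental cells) and 8980 in the second (the knockdown). The samples were 16 libraries of human breast cancer cells, with 2 ribosome footprint libraries and 2 RNA libraries for each of 4 lines. Parental MDA-MB-231 (MDA-Par), a triple receptor negative line labelled poorly metastatic, was compared with MDA-LM2, its highly lung metastatic derivative. MDA-MB-231 cells with a control guide (sgControl) were compared with the same cells carrying a guide against HNRNPC (sgHNRNPC), a nuclear protein that binds U-rich RNA. By the methods of the study, knockdown used CRISPR interference, so sgControl and sgHNRNPC cells both express a dCas9-KRAB repressor, delivered by lentivirus and sorted. Each derivative is 1 line, and the methods describe the replicates as biological duplicates.

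A microRNA starts as a hairpin in a longer transcript. The Microprocessor, formed by DROSHA and DGCR8, cuts the hairpin out in the nucleus, XPO5 (exportin-5) carries it to the cytoplasm with RAN-GTP, and DICER1 trims it to a short duplex. An Argonaute protein keeps a single strand of this duplex as a guide, pairs it with sites that lie mostly in 3′ UTRs, and recruits TNRC6 proteins, which bring in the deadenylases and decapping factors that silence the mRNA. The study links longer 3′ UTRs to AGO2 repression, and the comparisons below address whether the mRNAs of the machinery itself differed in RNA abundance, in ribosome-protected footprints (RPF) or in translational efficiency (TE, the ratio of RPF to RNA). All levels are normalised counts on a linear scale, and all changes are differences of log2(value + 1), which understate the change of low genes.

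Over the whole series, read totals were recovered from the deposited RNA values and cover the listed transcripts only. They were 7517953 to 8193031 for each RNA library of parental and MDA-LM2 cells, and 5141959 to 6164753 for those of the knockdown experiment. The normalised RPF totals were 650736 to 679726 and 158011 to 167928, respectively, and their depth in reads is unknown. The 5 markers of mesenchymal-like MDA-MB-231 cells (VIM, CD44, EGFR, AXL and CAV1) were listed in both tables. Of 9 markers of hormone receptor positive breast, leukocytes and endothelium, GATA3 was listed, in the MDA-LM2 table, at 8.5 to 18.6 normalised RNA counts. The paralogs AGO4 and TNRC6C were listed in neither table.

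The annotated mRNAs of several members carried very long 3′ UTRs. The 3′ UTR was 16755 bases for AGO3, 12567 for TNRC6B, 11888 for AGO2 and 10925 for AGO1, each longer than at least 99.3% of those listed in the MDA-LM2 table. DICER1 had 4270 bases and TNRC6A 2411, whereas DGCR8, XPO5 and DROSHA had 1764, 1534 and 938. The median was 4270 bases for the members and 1167 for all 10521 listed transcripts with a 3′ UTR. These are lengths of the annotated isoform (GENCODE version 44). The files hold a single value per mRNA, so which 3′ UTR ends were used was not measured.

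Poly(U) stretches, the kind of sequence that HNRNPC binds, were searched for as a C followed by 6 U (CTTTTTT in the DNA letters of the annotation, sense strand of the mRNA only). At least 1 match lay in the 3′ UTR of 7 members (77.8%), compared with 42.9% of all listed 3′ UTRs and 65.1% of the 5876 listed 3′ UTRs at least as long as that of DROSHA, the shortest of the members. AGO3 held 17 matches, TNRC6B 10, AGO1 and AGO2 6 each, TNRC6A 4, DICER1 3 and DGCR8 1, and DROSHA and XPO5 held none. The set of 5876 had a median 3′ UTR of 2351 bases, against 4270 for the members, so the shares above are not matched for length. Per kilobase of 3′ UTR there were 0.75 matches in the members and 0.51 in that set. AGO2 (0.5) and AGO1 (0.55) lay near that set, TNRC6A was highest (1.66), and DROSHA and XPO5 were at 0. A match is a string of letters and not a measured binding site. Runs of U that follow A or G were not counted, in DROSHA and XPO5 or elsewhere. The match nearest the stop codon is shown for the members in which it helps to see its setting, in 30 bases from 5′ to 3′ with the match in capitals, on hg38: for AGO3 (chr1:36056712-36056741, plus strand), where the match sits in a longer pyrimidine tract, for TNRC6B (chr22:40323261-40323290, plus strand), where it starts at base 31 of the 3′ UTR and stands alone, for DICER1 (chr14:95087324-95087353, minus strand), and for DGCR8 (chr22:20111353-20111382, plus strand), whose match is the only match in its 3′ UTR and begins a longer run of U.
AGO3: ctattctttttCTTTTTTctttttcttttc
TNRC6B: gacctcgtgacCTTTTTTggaacagcagca
DICER1: atatttcttttCTTTTTTcttttatattac
DGCR8: tactgatggcgCTTTTTTttttttttctgt

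Members of this pathway are themselves templates and targets of microRNAs. The DGCR8 mRNA (14 exons at chr22:20080241-20111872, plus strand) contains hairpins that the Microprocessor is known to cut, which lowers DGCR8 mRNA when Microprocessor is plentiful. In the listed isoform, miR-3618 begins 167 bases before the start codon, in the 5′ UTR, and both arms of miR-1306 lie in the coding sequence. DICER1 is a known target of miR-103a. The mature sequences are shown from RefSeq (GRCh38.p14), with the seed, bases 2 to 8 from the 5′ end, in capitals, and let-7a is added as a widely expressed microRNA.
hsa-miR-3618: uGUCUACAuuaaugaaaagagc
hsa-miR-1306-5p: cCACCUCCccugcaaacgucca
hsa-miR-1306-3p: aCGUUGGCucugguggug
hsa-miR-103a-3p: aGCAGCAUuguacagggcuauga
hsa-let-7a-5p: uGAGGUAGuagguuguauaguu
The 7-base complement of the miR-103a seed (ATGCTGC) occurred 5 times in the 3′ UTR of DICER1, 5 times in that of AGO2, 3 times each in AGO1 and TNRC6B and once in AGO3, so 55.6% of members held it, compared with 13.4% of all listed 3′ UTRs and 21.1% of those at least as long as that of DROSHA. The DICER1 match nearest the stop codon lies at chr14:95089446-95089475 (minus strand).
DICER1, miR-103a match: acacctaaaatATGCTGCagattttataat
The complement of the let-7 seed (CTACCTC) occurred once each in AGO1 and AGO3, 2 times in AGO2, and not in the 3′ UTR of the other members, which makes 33.3% of members and 10.1% of all listed 3′ UTRs (15.7% of those at least as long as that of DROSHA). The 3′ UTRs at least as long as that of DROSHA had a median of 2351 bases, against 4270 for the members. The miR-103a and let-7 shares are therefore not matched for length. MicroRNAs themselves were not measured.

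The levels of the members in each line are described first, since they set how well each can be measured. The plot of RNA by library and the plot of RPF by library show every value. Reads of the Argonautes and of the TNRC6 proteins can match paralogs, and how the authors treated such reads is not given in the sources used here.

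**Figure D1:**
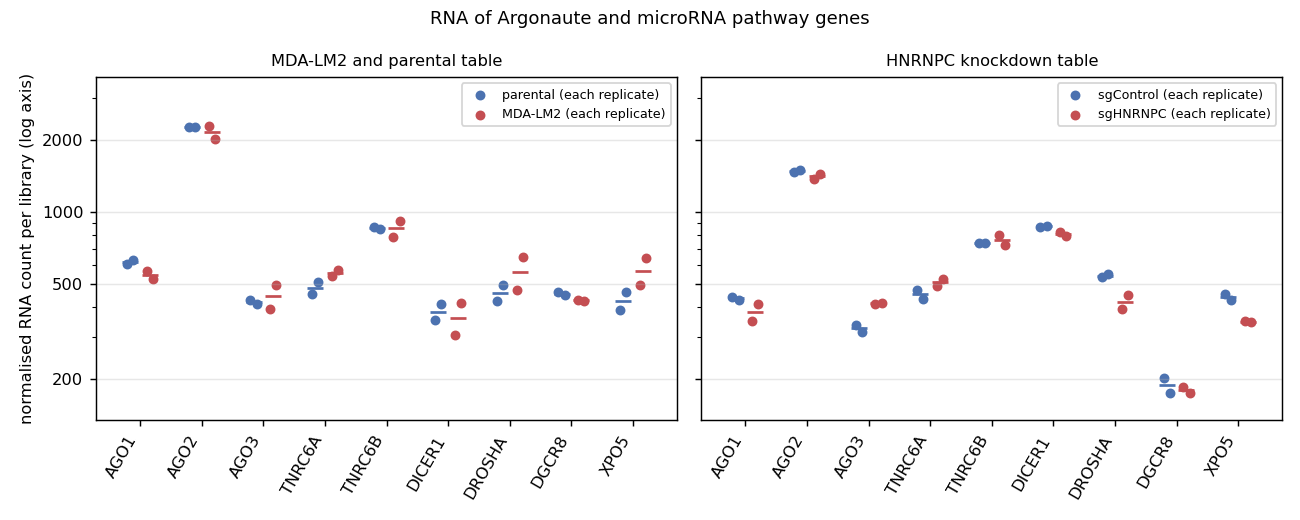
Normalised RNA counts of the 9 genes (log axis), with a point for each of 2 replicates and a bar at their mean, for parental and MDA-LM2 cells (left) and sgControl and sgHNRNPC cells (right). AGO2 is the highest in each line, between 1383 and 2301, and in the right panel DROSHA and XPO5 are lower and AGO3 is higher in both sgHNRNPC replicates.

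AGO2, the Argonaute with slicer activity, had the most RNA of the members in every line. Its RNA was 2271 in both parental replicates, 2301 and 2033 in MDA-LM2, 1469 and 1511 in sgControl, and 1383 and 1444 in sgHNRNPC. Per kilobase of mRNA this was 156 in parental cells, against 45.2 for AGO1 and 21.4 for AGO3, and the ratio of AGO2 to AGO1 per kilobase was 3.11 to 3.82 in all 8 RNA libraries. In sgControl cells AGO2 (102 per kilobase) was close to DROSHA (100 per kilobase). The footprints of AGO2 ranked lower than its RNA. RNA counts come from the whole mRNA of 14595 bases and footprints from a coding sequence of 2580 bases, so the 2 ranks are not alike. RPF values were 39.3 and 33.9 in parental cells, 31.9 and 29.0 in MDA-LM2, 13.8 and 6.91 in sgControl and 6.29 and 6.82 in sgHNRNPC. AGO2 stood at the percentile 94.6 of RNA but 57.9 of RPF among all 10799 listed transcripts in parental cells.

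AGO1 had 607 and 634 RNA counts in parental cells, 567 and 524 in MDA-LM2, 444 and 429 in sgControl, and 352 and 412 in sgHNRNPC. Its footprints were the lowest of the members, at 7.0 and 11.6 in parental cells and 11.6 and 7.33 in MDA-LM2, and between 1.47 and 2.97 in the knockdown table. AGO3, which lies next to AGO1 on chromosome 1 on the same strand, had RPF values of 15.5 and 14.4 in parental cells, 15.7 and 13.5 in MDA-LM2, and 3.37 to 7.67 in the knockdown table. Both therefore had RNA counts of at least 315 in every library and footprints near or below the test minimum of 10.

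The TNRC6 scaffolds, which bind Argonaute and recruit the silencing factors, had more footprints. TNRC6B had 62.5 and 53.0 RPF counts in parental cells and 64.8 and 63.7 in MDA-LM2, on RNA counts of 872, 853, 791 and 923. TNRC6A had 36.9 and 36.4 in parental cells and 36.3 and 41.8 in MDA-LM2, on RNA counts of 454, 512, 541 and 571. In the knockdown table the 2 replicates of a line could differ widely, as in sgHNRNPC, where the RPF values of TNRC6B were 7.48 and 18.1.

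Of the processing factors, XPO5 had the most footprints in every line, with RPF values of 170 and 146 in parental cells, 174 and 168 in MDA-LM2, 35.9 and 36.8 in sgControl, and 40.7 and 36.5 in sgHNRNPC. DROSHA had 63.0 and 64.6 in parental cells and 49.9 and 63.0 in MDA-LM2. DICER1 had 41.7 and 46.9, then 37.6 and 32.8, and DGCR8 had 28.7 and 22.4, then 24.4 and 19.5. In the knockdown table these 3 genes lay between 3.98 and 14.6. XPO5 was thus the only member with at least 35.9 normalised footprints in every library.

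**Figure D2:**
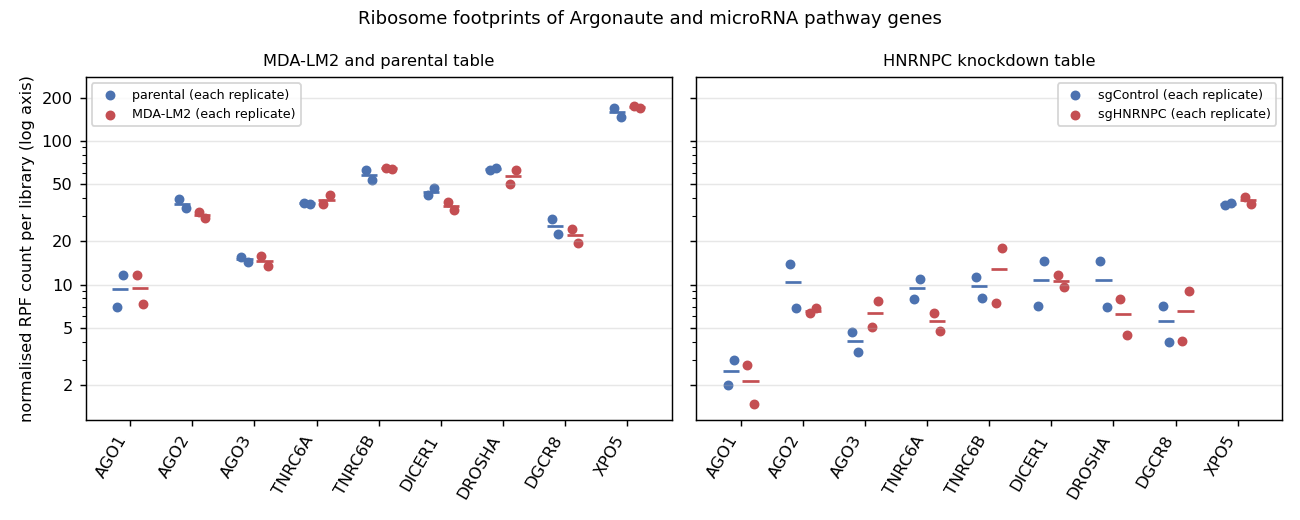
Normalised RPF counts of the 9 genes (log axis), with a point for each of 2 replicates and a bar at their mean, in the same 2 panels. XPO5 is highest in every line and AGO1 lowest, and apart from XPO5 no gene in the knockdown table exceeds 18.1.

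To set genes side by side, TE was also scaled by length, as RPF per kilobase of coding sequence over RNA per kilobase of mRNA. In parental cells XPO5 was highest at 0.553 ± 0.127 (SD, n = 2), above the median of 0.233 over all 10562 annotated transcripts. AGO3 (0.271 ± 0.00615), TNRC6B (0.222 ± 0.0224), DICER1 (0.208 ± 0.00586) and DROSHA (0.183 ± 0.0165) lay near the median. TNRC6A (0.110 ± 0.0104), DGCR8 (0.108 ± 0.0164), AGO2 (0.0911 ± 0.00951) and AGO1 (0.0794 ± 0.0254) formed the lower end. In this order, replicate values of neighbours overlapped between TNRC6B and DICER1 and among the lowest 4, and XPO5 stood clear of AGO3. In MDA-LM2, XPO5 was again highest (0.449 ± 0.0900), and AGO2 (0.0796 ± 0.00176) and AGO1 (0.0920 ± 0.0246) were again lowest. In sgControl cells the median over all transcripts was 0.0966, a scale not comparable with the other table, which was normalised separately. There XPO5 (0.121 ± 0.00680) and AGO3 (0.0931 ± 0.0162) were highest again. DICER1 (0.0221 ± 0.0107) and DROSHA (0.0262 ± 0.0136) were lowest, with replicate values that overlapped those of AGO1 and TNRC6A, at the percentiles 3.7 and 5.3 of 8780 transcripts, compared with 45.3 and 40.1 in parental cells. The scaling takes the whole annotated mRNA as present, so for a gene with a long annotated 3′ UTR the scaled TE depends on that annotation.

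**Figure D3:**
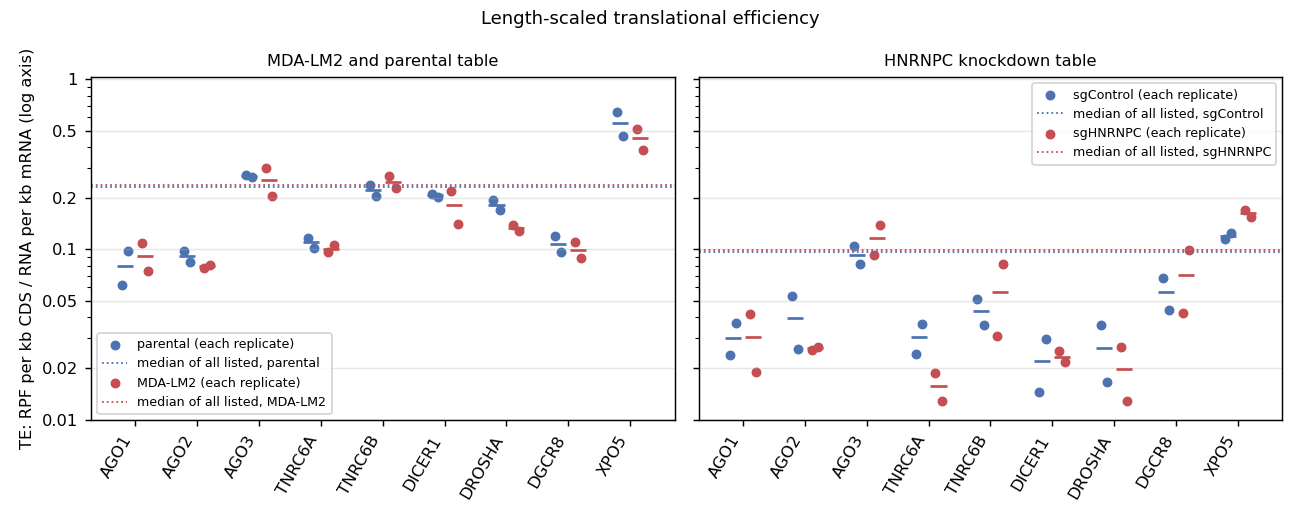
Length-scaled TE (RPF per kilobase of coding sequence over RNA per kilobase of mRNA, log axis) of the 9 genes, with a point for each of 2 replicates, a bar at the mean and a dotted line at the median of all listed annotated transcripts of each line. The mean of XPO5 is above the median in all 4 lines, and those of AGO1, AGO2, TNRC6A, DICER1, DROSHA and DGCR8 are below it in all 4.

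MDA-LM2 cells were then compared with parental cells, to ask whether the machinery differed with metastatic capacity. No member passed the test in RNA (0 of 9), RPF (0 of 8) or TE (0 of 8), by limma with Benjamini-Hochberg adjustment over all transcripts tested. The RNA test called 16.8% of 10772 transcripts, of which 40.0% were higher (67.6% with libraries scaled to equal totals), the RPF test called 12.0% of 8393 (41.6% higher, 54.3% with equal totals), and the TE test called 0.0357%. An unadjusted p under 0.05 (limma) was reached by 1 of the 9 members in RNA and by none in RPF or TE. Over all transcripts tested it was reached by 3500 of 10772 in RNA, 2065 of 8393 in RPF and 455 of 8393 in TE. Limma voom on the RNA reads and the logistic regression on TE also called 0 members. AGO1 was under the footprint minimum and was not tested in RPF or TE.

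XPO5 had the largest RNA difference, with 389 and 463 in parental cells and 498 and 643 in MDA-LM2. The change was 0.42 ± 0.16 (log2, SE; adjusted p = 0.108, limma). DROSHA followed with 425 and 496 against 474 and 648, a change of 0.27 ± 0.17 (adjusted p = 0.301, limma), and its groups overlapped. In bulk libraries such as these, more RNA per cell and more cells with the RNA cannot be told apart. The RNA of the other members changed by between -0.19 (AGO1) and 0.21 (TNRC6A). AGO2 changed by -0.07, with a 95% interval from -0.34 to 0.20, and its sign, like those of TNRC6B, DICER1 and DGCR8, turned when libraries were scaled to equal totals. The MDA-LM2 replicates differed from each other by more than the parental ones for 7 of the 9 members, with replicate 2 higher for XPO5, DROSHA, DICER1, AGO3 and TNRC6B and lower for AGO2 and AGO1. Leaving out an MDA-LM2 library leaves 1 sample, which is assumed to vary like the parental pair, and such fits called far more transcripts. Without replicate 1 they called XPO5 (0.60), DROSHA (0.50), TNRC6A (0.24) and AGO1 (-0.24) beside 46.8% of all transcripts, and without replicate 2 DICER1 (-0.32) beside 31.3%. HNRNPC itself was 2768 and 2664 in parental cells and 2197 and 1930 in MDA-LM2, a change of -0.40 ± 0.12 (adjusted p = 0.0551, limma), and it passed in the fits without MDA-LM2 replicate 1 (adjusted p = 2.08e-08) or replicate 2 (0.00121).

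In footprints, the 95% intervals of the 8 tested members all included 0. The largest RPF difference was that of DICER1, at -0.32 ± 0.22 (95% interval -0.76 to 0.12, adjusted p = 0.376, limma). AGO2 followed at -0.25 ± 0.24 (-0.73 to 0.22, adjusted p = 0.549, limma). In TE, 7 of the 8 tested members had a negative difference and TNRC6B a positive difference of 0.17 ± 0.20. A negative TE difference was also that of 3817 of all 8393 transcripts tested and of 42 of the 64 other pathway genes. The TE signs of AGO3, DICER1 and DGCR8 turned when a replicate was left out. The median was -0.15 for the members, 0.03 for all transcripts and -0.08 for the 64 other pathway genes tested. DROSHA had the largest TE difference at -0.45, with a 95% interval from -1.0 to 0.10 (adjusted p = 0.903, limma), followed by XPO5 at -0.30 (-0.77 to 0.18), DICER1 at -0.23 (-0.80 to 0.35) and AGO2 at -0.18 (-0.59 to 0.23). With intervals this wide, even the DROSHA difference could not be told from the spread between replicates.

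**Figure D4:**
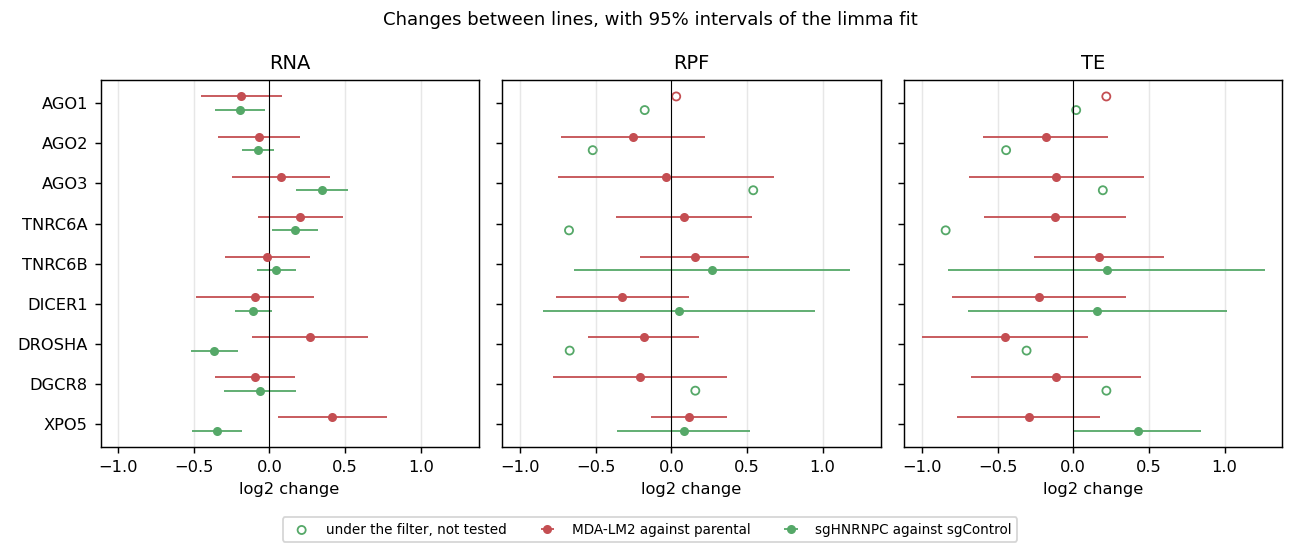
Log2 changes of RNA, RPF and TE for the 9 genes, MDA-LM2 against parental cells (red) and sgHNRNPC against sgControl (green), with 95% intervals of the limma fit. Open points were under the footprint minimum and not tested. In RNA the sgHNRNPC intervals of DROSHA and XPO5 lie below 0 and that of AGO3 above it, as do, without passing the adjusted test, those of AGO1 (below) and TNRC6A (above) and the MDA-LM2 interval of XPO5 (above), while all RPF intervals and all TE intervals but that of XPO5 after knockdown span 0.

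HNRNPC knockdown was examined in the same way. The targeted gene fell in RNA from 2162 and 2146 in sgControl to 1147 and 1183 in sgHNRNPC, by 0.89 ± 0.05 on the log2 scale (adjusted p = 7.13e-34, limma). Its RPF values were 73.4 and 111 in sgControl and 54.4 and 67.0 in sgHNRNPC.

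Of the 9 members, 3 passed the RNA test after knockdown, 2 of them lower and 1 higher, where the test called 9.97% of 8961 transcripts (6.60% lower and 3.37% higher). DROSHA (chr5:31400494-31532093, minus strand), the nuclease of the Microprocessor, fell from 535 and 552 to 394 and 452, by 0.36 ± 0.08 (adjusted p = 0.000304, limma), which is 0.777 of its sgControl level. XPO5 (chr6:43522334-43576038, minus strand), the export receptor for the hairpins that DROSHA releases, fell from 457 and 432 to 350 and 348, by 0.35 ± 0.08 (adjusted p = 0.00171). AGO3 (chr1:35931105-36072500, plus strand) rose from 339 and 315 to 412 and 419, by 0.35 ± 0.09 (adjusted p = 0.00258), a 1.27-fold difference. With 2 values in each group, separation of the groups adds little to the test, and its share over all transcripts was not counted. The calls rest on moderation with a trend: without it, limma called 0 of 8961 transcripts, HNRNPC included (adjusted p = 0.152), whereas voom called the same 3 members. DROSHA missed the threshold without sgHNRNPC replicate 1 (adjusted p = 0.0731) and AGO3 without sgHNRNPC replicate 2 (adjusted p = 0.0599).

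The other 6 members did not pass. AGO1 went from 444 and 429 to 352 and 412, a difference of -0.20 ± 0.08 (adjusted p = 0.127, limma). TNRC6A went from 474 and 434 to 490 and 528, a difference of 0.17 ± 0.08 (adjusted p = 0.172). AGO2 differed by -0.08, with a 95% interval from -0.18 to 0.03. DICER1 (-0.11), DGCR8 (-0.06) and TNRC6B (0.05) differed by less. The partners DROSHA and DGCR8 thus had different results, and the interval for DGCR8 (-0.30 to 0.18) was wider, on RNA counts of 203 and 175 in sgControl and 186 and 175 in sgHNRNPC. XPO5 and DROSHA differed in opposite directions in the 2 comparisons, higher in MDA-LM2, where neither passed the test, and lower after knockdown. The difference between the comparisons was not tested, since the tables were normalised separately.

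Only XPO5, DICER1 and TNRC6B had enough footprints for a test of RPF and TE after knockdown, and none of the 3 passed. The RPF test called 0.0233% of 4283 transcripts. The TE test called 0, with 332 at an unadjusted p under 0.05 and 11 called by logistic regression. The XPO5 footprints were 35.9 and 36.8 in sgControl and 40.7 and 36.5 in sgHNRNPC. Their change was 0.08, with a 95% interval from -0.36 to 0.52, which includes the RNA change of -0.35. The TE difference of XPO5 was 0.43 ± 0.19, with a 95% interval from 0.01 to 0.85 and an adjusted p of 0.628 by limma. The intervals for TNRC6B (-0.83 to 1.27) and DICER1 (-0.70 to 1.01) allowed changes in either direction. The remaining 6 members, AGO2 and DROSHA among them, had mean RPF values under 10, and a change in their translation could not be examined at this depth.

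The partners of the core machinery were described from a list of 72 other pathway genes, of which 67 were listed in the MDA-LM2 table and 65 in the knockdown table. In MDA-LM2, 3 of 67 passed in RNA (4.48%), below the 16.8% of all transcripts, and all 3 were higher, as were 6.73% of all transcripts. EDC3, an activator of decapping, rose from 247 ± 15.0 to 450 ± 33.9 (SD, n = 2 each), by 0.86 ± 0.13 on the log2 scale (adjusted p = 0.00365, limma). HSP90AA1, an HSP90 chaperone that helps load Argonaute, rose by 0.60 ± 0.16 (adjusted p = 0.0357), and EIF4ENIF1 (4E-T), which links silencing to decapping, by 0.62 ± 0.17 (adjusted p = 0.0392). Leaving out either parental replicate ended the calls of HSP90AA1 (adjusted p up to 0.335) and EIF4ENIF1 (up to 0.183), but not that of EDC3. HSP90AA1 also missed the threshold with moderation without a trend (adjusted p = 0.0686).

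In RPF, 4 of 64 passed in MDA-LM2 (6.25%, against 12.0% of all transcripts), all higher, as were 5.00% of all transcripts. TUT7, which adds uridines to microRNA precursors, rose from 31.2 ± 0.0271 to 57.0 ± 4.13 (SD, n = 2 each), by 0.85 ± 0.21 on the log2 scale (adjusted p = 0.00546, limma). EDC3 rose by 0.73, IPO8, an importin found with Argonaute, by 0.44, and NCBP2, a cap-binding subunit, by 0.77. None of the 4 kept its call when MDA-LM2 replicate 2 was left out (adjusted p between 0.0732 and 0.321) or with moderation without a trend (0.0729 to 0.261), and IPO8 also lost it without any of the other 3 replicates, EDC3 without parental replicate 1 and NCBP2 without parental replicate 2. Across all settings run, calls of these 4 genes were lost 15 times. In TE 0 of 64 passed, with 3 at an unadjusted p under 0.05.

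After knockdown, 5 of 65 passed in RNA (7.69%, against 9.97% of all transcripts), and all 5 were lower, as were 6.60% of all transcripts. SAFB2, a nuclear RNA-binding protein that aids Microprocessor, fell from 656 ± 34.9 to 512 ± 2.32 (SD, n = 2 each), by 0.36 ± 0.07 on the log2 scale (adjusted p = 0.000101, limma). DCP2, the decapping enzyme, fell by 0.27 ± 0.07 (adjusted p = 0.00208), AJUBA, a LIM-domain protein that binds Argonaute, by 0.21, RAN, the GTPase of XPO5 export, by 0.14, and CNOT8, a deadenylase, by 0.29. Apart from SAFB2, each lost its call without at least 1 replicate: DCP2 without sgHNRNPC replicate 2 (adjusted p = 0.0799), AJUBA, RAN and CNOT8 without several, at adjusted p values up to 0.476, 0.298 and 0.265. The median change of the 65 genes was -0.04, against -0.02 over all transcripts. In RPF and TE 0 of 46 passed, with 1 in each at an unadjusted p under 0.05. LIN28A, LIN28B and WTIP were listed in neither table, and PAN2 and DCP1B were not listed in the knockdown table.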

How the data were processed

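Ribosome footprints and RNA were sequenced from 4 lines, with 2 replicates each, grouped by the sample titles. The authors trimmed footprint reads with cutadapt 2.3, collapsed molecular identifiers, removed rRNA and tRNA reads and aligned to 1 mRNA per gene with Bowtie2 2.3.5 (hg38 per the labels). They deposited, for each transcript, a normalised signal, with each table normalised separately, so tests stay within a table and levels set across tables are approximate. Every deposited RNA value was a whole multiple of a step for its library (within 0.02), which gives the read totals of the listed transcripts.

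Transcripts were matched to GENCODE version 44 (97.9% in each table). RNA was tested for transcripts with a mean RNA value of at least 10, and RPF and TE where both means reached 10, on log2(value + 1) with limma 3.58.1 in R 4.3.3 (empirical Bayes with a trend, TE as the interaction), two-sided, with calls where the Benjamini-Hochberg adjusted p was under 0.05. Scripts were tested on simulated data. The members and lists were chosen with earlier results of these data known. Named genes were the members, their paralogs, HNRNPC, and the other pathway genes called, at most 6 for each comparison and kind of value. Labels give no batch. No protein sequences were used here.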

Additional observations from a re-analysis of the deposited data

How the results depend on the processing

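The counts of members called were recomputed under other added values, filters, scalings, moderation, tests and without each replicate. In MDA-LM2 RNA, the replicate number as a replicate block gave 1 member (XPO5, 0.42, adjusted p = 0.0266) beside 23.6% of all transcripts, and leaving out a replicate gave 0 to 4 beside 6.71% to 46.8%. HNRNPC RNA also passed with the block (adjusted p = 0.0279). The numbers share only a number: deviations of same-numbered samples correlated at 0.234 in MDA-LM2 RNA, 0.0443 in its RPF, -0.00377 in knockdown RNA and 0.0281 in its RPF. The block changed no other count of members. In knockdown RNA, leaving out a replicate gave 2 to 3 members. Moderation without a trend gave 0, as it did over all transcripts. A filter on both RPF and RNA gave 1 (XPO5), as only 3 members are tested there. The shares of all transcripts called without a replicate, with this filter or by voom are not given here. The RPF and TE counts stayed at 0 under every setting run. The planned count test on recovered reads was not run. Voom was used in its place, chosen after seeing the data, and it called 0 and 3 members.

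Over all transcripts, the block moved the RPF calls after knockdown from 1 to 12, moderation without a trend moved the RPF calls in MDA-LM2 from 1010 to 132, and logistic regression moved the TE calls from 3 to 181. Scaling libraries to equal sums moved the median RNA change of MDA-LM2 from -0.02 to 0.15 and turned the sign of RNA for AGO2 (0.10), TNRC6B (0.16), DICER1 (0.0730) and DGCR8 (0.0759), and of RPF for AGO3 (0.0173), with none called. Leaving out a replicate in MDA-LM2 turned signs of RNA for AGO2 (-0.16 to 0.0186), AGO3 (-0.0884 to 0.24), TNRC6B (-0.12 to 0.0979) and DICER1 (-0.32 to 0.13), of RPF for AGO3 (-0.14 to 0.0659) and TNRC6A (-0.0142 to 0.18), and of TE for AGO3 (-0.38 to 0.15), DICER1 (-0.55 to 0.0944) and DGCR8 (-0.26 to 0.0361). After knockdown it turned those of RNA for DGCR8 (-0.17 to 0.0480) and TNRC6B (-0.0249 to 0.12), of RPF for DICER1 (-0.42 to 0.52) and TNRC6B (-0.32 to 0.85), and of TE for DICER1 (-0.31 to 0.62) and TNRC6B (-0.44 to 0.88). The causes were not tested. RPF values under 10 limit what can be said of AGO1 in either table and of 6 members after knockdown.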

Other observations

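Ratios within a library do not depend on how the tables were scaled. Per kilobase of mRNA, the RNA ratio of DICER1 to AGO2 was 0.219 and 0.256 in parental cells and 0.186 and 0.289 in MDA-LM2, but 0.832 and 0.816 in sgControl and 0.841 and 0.774 in sgHNRNPC. DROSHA over DGCR8 was 0.762 and 0.919 in parental cells, 0.914 and 1.27 in MDA-LM2, 2.19 and 2.62 in sgControl, and 1.76 and 2.14 in sgHNRNPC. The ratio of TNRC6B to TNRC6A, by contrast, stayed between 0.642 and 0.892 in all 8 libraries. Parental and sgControl cells come from the same line, and the 2 tables were deposited separately, so line and table cannot be told apart. No test was made across the tables.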
